A study of Mus musculus with 6 samples.

Results

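The genes described here set the threshold for mitochondrial cell death: the BCL2 family and Trp53, the mouse gene of the transcription factor p53. A list of 10 genes was drawn up by name, holding Bcl2, Bcl2l1 and Mcl1 on the survival side, Bax, Bak1, Bcl2l11, Bid, Bbc3 and Pmaip1 on the death side, and Trp53. Of these 10 genes, 6 are among the 6467 genes of the deposited table, namely Bcl2, Bax, Bak1, Bcl2l11, Bbc3 and Trp53. The table holds only genes that passed the authors' own q-value threshold, so Bcl2l1, Mcl1, Bid and Pmaip1 were either at a q-value of at least 0.05 or untested, and no level is given for them. For the 6 genes present, passing that threshold was a condition of being seen at all.

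RNA came from CD8+ T cells sorted out of MC38 tumours, which derive from a colon carcinoma of mice, on wild-type (WT) C57/B6J hosts. The treated group, 3 libraries, received αPD-1-IL-15-R, which the study's title presents as anti-PD-1 that directs a concealed IL-15, and the control group, also 3 libraries, received PBS. The dose of αPD-1-IL-15-R was 30 µg into the peritoneum, given on day 14 and again on day 17, with isolation of cells 48 hours later. No injection days or time of isolation are recorded here for the PBS libraries. Age and sex of the mice are not in the labels, which also do not say whether a library is 1 animal or a pool, so the spread between libraries may be partly technical. Neither group here received the antibody or IL-15 alone.

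Anti-apoptotic BCL2 proteins sit on the outer mitochondrial membrane and hold the pore-forming effectors BAX and BAK in check. BH3-only proteins such as BIM (Bcl2l11) and PUMA (Bbc3) bind the survival proteins and release or activate the effectors, after which cytochrome c escapes and caspases are activated. In T cells, IL-2, IL-7 and IL-15 signal through STAT5 and sustain BCL2, BIM removes activated cells when cytokine runs out, and p53 induces Bax, Bbc3 and Pmaip1 after DNA damage.

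Because Bcl2, Bax, Bcl2l11 and Trp53 carry the main results, the annotated bases just before their transcription starts are printed here from RefSeq (GRCm38.p6, 5′ to 3′ on the gene's strand). The sources used here name no build for the deposited table. For Trp53 the window was shortened to leave out an annotated exon of a neighbouring gene. Capitals mark matches, on either strand, to CACGTG (the E-box), GTAAACA (the forkhead motif), TTCNNNGAA (the STAT motif) or the p53 half-site.
Bcl2 promoter, chr1:106714291-106714540, minus strand: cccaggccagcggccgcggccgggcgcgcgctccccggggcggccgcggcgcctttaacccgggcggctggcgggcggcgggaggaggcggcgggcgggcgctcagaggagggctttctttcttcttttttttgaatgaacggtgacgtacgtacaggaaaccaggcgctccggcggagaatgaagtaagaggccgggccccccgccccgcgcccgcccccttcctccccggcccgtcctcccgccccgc
Bax promoter, chr7:45466899-45467148, minus strand: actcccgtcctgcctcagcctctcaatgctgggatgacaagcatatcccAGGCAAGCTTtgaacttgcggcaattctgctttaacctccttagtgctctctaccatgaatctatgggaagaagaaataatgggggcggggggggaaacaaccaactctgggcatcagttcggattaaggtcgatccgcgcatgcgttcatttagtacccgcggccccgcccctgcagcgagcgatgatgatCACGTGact
Bcl2l11 promoter, chr2:128125788-128126037, plus strand: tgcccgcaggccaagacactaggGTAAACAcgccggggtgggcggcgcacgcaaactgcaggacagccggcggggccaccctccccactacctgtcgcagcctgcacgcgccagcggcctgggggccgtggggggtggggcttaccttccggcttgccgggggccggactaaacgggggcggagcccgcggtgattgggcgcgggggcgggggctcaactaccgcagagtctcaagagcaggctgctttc
Trp53 promoter, chr11:69580256-69580358, plus strand: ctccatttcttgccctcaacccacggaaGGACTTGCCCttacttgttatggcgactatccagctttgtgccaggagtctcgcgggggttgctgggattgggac
Bax held CACGTG at position -9 and a p53 half-site at position -201 relative to its start, and Trp53 held a p53 half-site at position -75. Bcl2l11 held GTAAACA at position -227, and the Bcl2 window held none of the 4 motifs. Among 32851 RefSeq windows of 250 bases, 6.02% held CACGTG, 3.17% GTAAACA, 7.02% TTCNNNGAA and 7.13% the p53 half-site. The Bcl2 and Bcl2l11 windows were rich in G and C, at 74.8% and 72.0%, against 54.0% for Bax and 56.3% for Trp53.

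Treated and PBS libraries also differed in levels of cell type marker genes, which in this design cannot be told apart from an effect of treatment. Reads assigned to table genes totalled 8484736 to 9403710 per library. Levels are given as TPM, a share of a library's transcripts that corrects for their length and so lets genes be compared, and changes between groups are computed from reads. The sorted marker gene Cd8b1 stood at 822, 1024 and 870 TPM in αPD-1-IL-15-R libraries 1 to 3, against 315, 892 and 518 TPM in PBS libraries 1 to 3. All 23 T cell identity genes present, of 35 listed, were higher in the treated libraries, and their summed TPM ranged from 6313 to 7503 in treated libraries and from 2099 to 5991 in PBS libraries, with PBS library 1 lowest. Macrophage and monocyte genes went the other way in 20 of 21 cases, Ccr2 excepted, with sums of 806 to 1940 TPM in treated and 4727 to 6285 TPM in PBS libraries, and Cd163 was at 0 in at least 1 library. MHC class II and dendritic cell genes were lower in 12 of 12 cases, with sums of 293 to 739 TPM in treated and 2757 to 3652 TPM in PBS libraries. Stromal genes other than Thy1 were lower in 14 of 14 cases, with sums of 49.1 to 407 TPM in treated and 1343 to 2397 TPM in PBS libraries. NK cell genes were higher in 8 of 11 cases, with sums of 2284 to 3506 TPM in treated and 767 to 1422 TPM in PBS libraries. Genes induced by tissue handling were lower in 6 of the 7 present, with sums of 789 to 939 TPM in treated and 1329 to 1790 TPM in PBS libraries. Endothelial genes were lower in 7 of the 7 present, with sums of 1.45 to 3.24 TPM in treated and 8.80 to 16.4 TPM in PBS libraries, and 3 of 10 neutrophil genes summed to 35.8 to 82.8 TPM in treated and 39.8 to 46.1 TPM in PBS libraries. None of 9 B cell genes and only Cdh1 of 11 epithelial genes are in the table. The part of these differences in the results on the BCL2 family was not tested, and in such bulk samples fewer cells of a type and less RNA per cell cannot be told apart.

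Bcl2, which encodes the founding survival protein of the family, had the largest log2 change of the 6 genes with the authors' size factors, though not when libraries were scaled on T cell identity genes, where Trp53 stood at -2.37 and Bcl2 at 0.82. It measured 71.5, 88.6 and 94.4 TPM in αPD-1-IL-15-R libraries 1 to 3, against 14.0, 39.9 and 27.2 TPM in PBS libraries 1 to 3. Every treated library lay above every PBS library, and PBS library 1, the lowest in Cd8b1, was also the lowest in Bcl2. In reads scaled by the authors' size factors, Bcl2 averaged 6795 ± 1205 in treated and 1534 ± 763 in PBS libraries (SD, n = 3 each). Bcl2 rose 4.43-fold, or by 2.15 ± 0.40 (SE) in log2, at an adjusted p of 0.041 from edgeR's quasi-likelihood test over 17077 genes. With that T cell scaling the SE of its change was 0.25 and the call was lost (edgeR adjusted p = 0.070). In the authors' deposited table its log2 change was 2.15 with a q-value of 3.8e-06. The authors also wrote the word effector beside Bcl2, 1 of 24 genes so marked in their table. The SD of those scaled reads was 17.7% of the mean in treated libraries and 49.7% in PBS libraries. A gene was called where the adjusted p was below 0.05, and size factors are the per-library divisors that put read numbers on 1 scale.

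**Figure D1:**
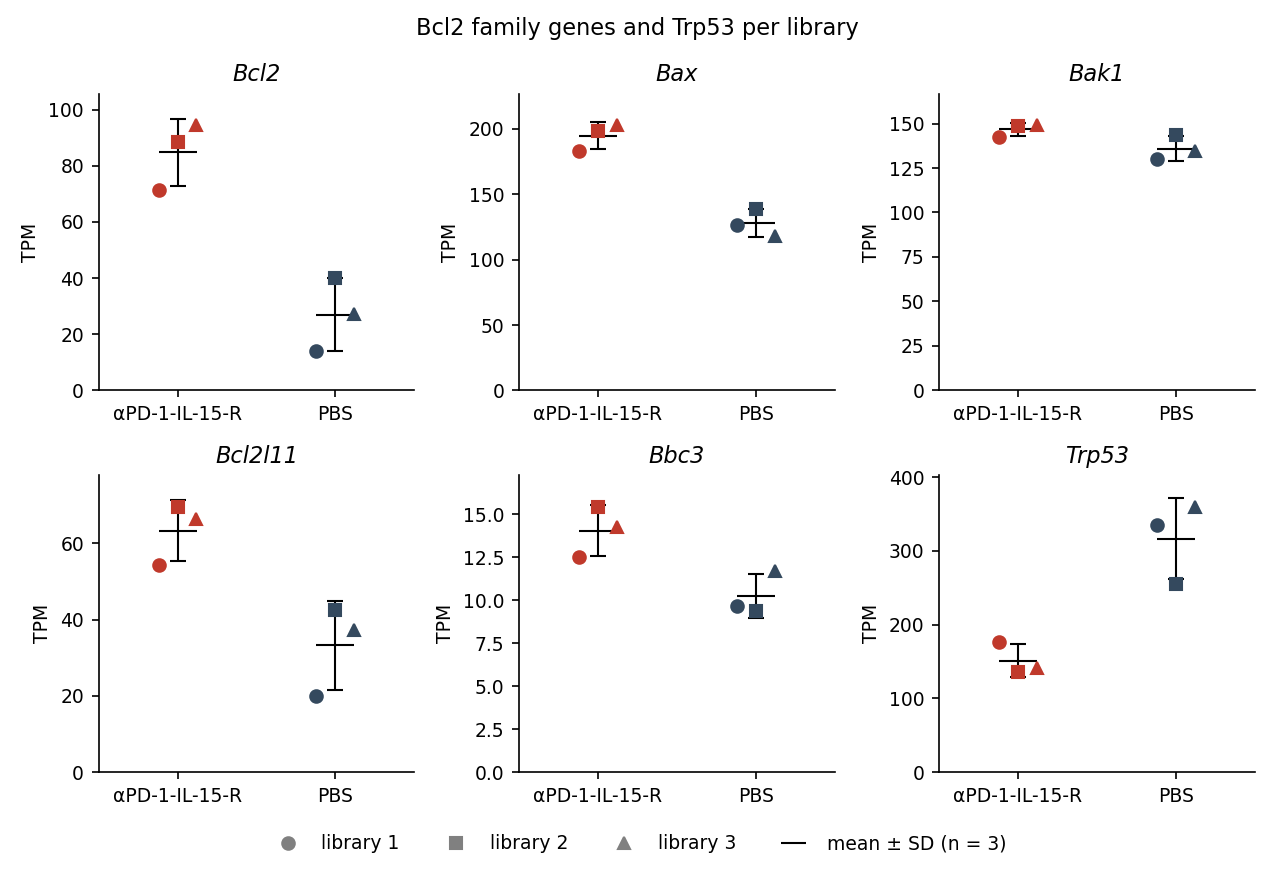
TPM (y axis, from 0) of the 6 genes in each library of the αPD-1-IL-15-R and PBS groups, with symbols for libraries 1 to 3 and black marks for the mean ± SD (n = 3). Treated libraries lie above PBS libraries for Bcl2, Bax, Bcl2l11 and Bbc3 and below them for Trp53, while Bak1 overlaps. With libraries scaled on T cell identity genes the log2 change of Bcl2 was 0.82 and no longer called, and those of Bax, Bak1, Bcl2l11 and Bbc3 were below 0.

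Bax, whose product forms the pore in the outer mitochondrial membrane, had 183, 199 and 203 TPM in treated libraries, against 127, 139 and 118 TPM in PBS libraries. The groups did not overlap, and the libraries of each group lay close together. Scaled reads averaged 1658 ± 144 in treated and 876 ± 101 in PBS libraries (SD, n = 3 each), a 1.89-fold rise (log2 change 0.92, SE 0.13, edgeR adjusted p = 0.040) that turned to -0.64 when scaled on T cell identity genes. Bak1, the gene of the second pore-forming effector, had 143, 149 and 149 TPM in treated libraries, against 130, 144 and 134 TPM in PBS libraries. PBS library 2 exceeded treated library 1 on that scale, so the groups overlapped. Its scaled reads averaged 3567 ± 234 in treated and 2660 ± 183 in PBS libraries (SD, n = 3 each), a log2 change of 0.42 (SE 0.11) just outside the threshold (edgeR adjusted p = 0.054). Reads of Bak1 may include some of Ggnbp1, which GENCODE M21 places on the opposite strand over the same bases, since strandedness of the counting is not given. Bcl2 likewise overlaps an opposite-strand transcript, D630008O14Rik, and Bax a same-strand model, Gm45808.

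Bcl2l11, the gene of the BH3-only protein BIM, had 54.3, 69.5 and 66.3 TPM in treated libraries, against 20.1, 42.5 and 37.2 TPM in PBS libraries. The groups did not overlap, and PBS library 1 was again the lowest. Scaled reads averaged 3541 ± 578 in treated and 1472 ± 494 in PBS libraries (SD, n = 3 each), a 2.41-fold rise (log2 change 1.27, SE 0.29, edgeR adjusted p = 0.047) that turned to -0.14 when scaled on T cell identity genes. Bbc3, the gene of PUMA, was the lowest of the 6, at 12.5, 15.4 and 14.2 TPM in treated libraries, against 9.66, 9.39 and 11.7 TPM in PBS libraries. The groups did not overlap, but treated library 1 lay close to PBS library 3. Scaled reads of Bbc3 averaged 315 ± 45.1 in treated and 185 ± 13.2 in PBS libraries (SD, n = 3 each), a 1.70-fold rise (log2 change 0.76, SE 0.18, edgeR adjusted p = 0.049) that turned to -0.81 with the T cell scaling.

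Trp53 was the only one of the 6 that fell with the authors' size factors, and its log2 change was negative under all 5 scalings tried. With the T cell scaling Bax, Bak1, Bcl2l11 and Bbc3 were below 0 as well. Set against the median gene fitted under each scaling, Trp53 stood at -0.20 to -0.18. Trp53 thus fell about as much as a typical fitted gene of the table. It measured 177, 136 and 141 TPM in treated libraries, against 335, 255 and 359 TPM in PBS libraries, with no overlap. PBS library 2 was the lowest of its group and treated library 1 the highest of its own. Scaled reads averaged 3201 ± 333 in treated and 5447 ± 893 in PBS libraries (SD, n = 3 each), which is 1.70-fold lower (log2 change -0.77, SE 0.16, edgeR adjusted p = 0.044). With TMM and median-ratio factors, 2 common ways of computing such divisors from the table itself, the log2 change was -0.49 and -0.35, and neither passed the threshold (edgeR adjusted p = 0.059 and 0.32). Both were computed from genes past the authors' threshold only. They gave PBS library 1 factors of 1.26 and 1.36, against 1.08 from the authors' log2 changes.

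The edgeR fit thus called 4 of the 6 genes higher and 1 lower, where 16.5% of the 6251 genes fitted were called higher, 20.7% lower and 37.2% in either direction. By the authors' q-value 5 of the 10 named genes were higher and 1 lower, where 16.0% of 17077 genes were higher, 21.9% lower and 37.9% either. Normalised reads of treated and PBS libraries did not overlap for any of the 6, as for 99.3% of table genes, so lack of overlap says nothing particular about them. Leaving out treated library 2 or 3, or PBS library 1 or 3, ended all 5 calls, with edgeR adjusted p of 0.088 to 0.18, and left 0 table genes called by edgeR, although 4220 to 4884 had an unadjusted p under 0.05. Leaving out PBS library 2 ended the call of Bbc3 (edgeR adjusted p = 0.075) and brought Bak1 past the threshold (edgeR adjusted p = 0.047).

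**Figure D2:**
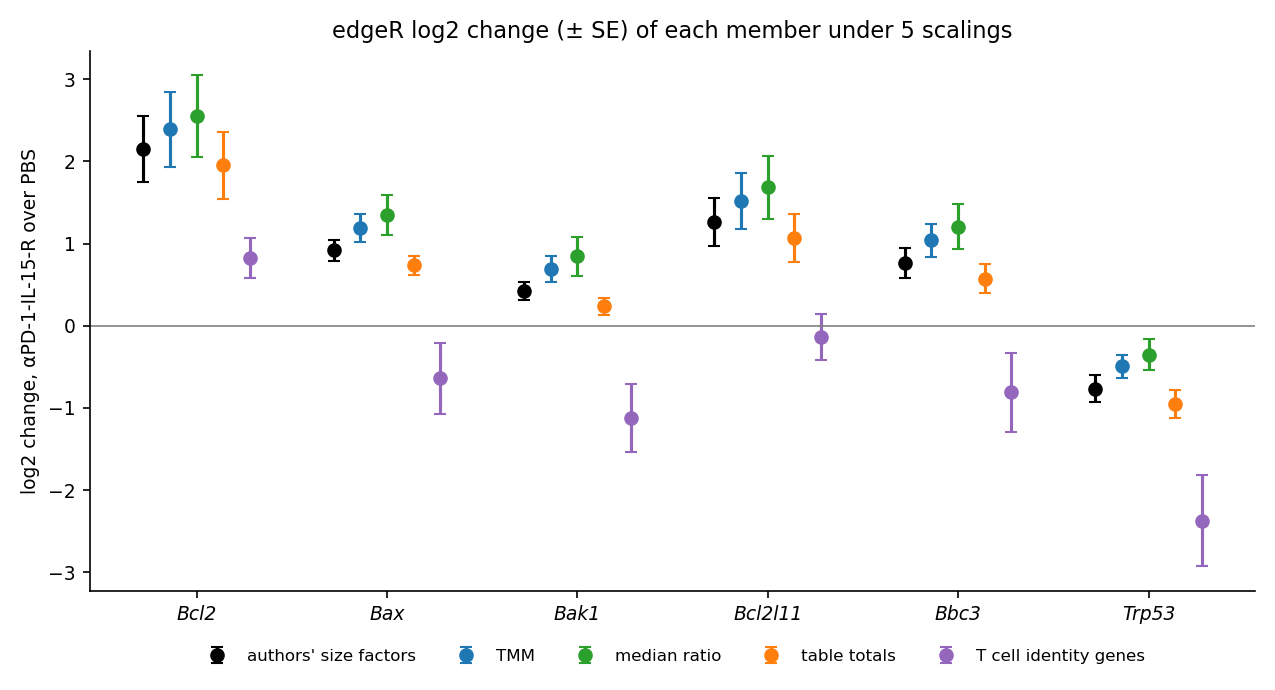
edgeR log2 change (y axis, ± SE) of αPD-1-IL-15-R over PBS for each of the 6 genes under 5 ways of scaling libraries, marked by colour. Bcl2 is above 0 and Trp53 below 0 under all 5, while Bax, Bak1, Bcl2l11 and Bbc3 are above 0 under the first 4 and below 0 when scaled on T cell identity genes.

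Most fitted genes were lower in the treated libraries. The median log2 change over the 6251 fitted genes was -0.57 with the authors' size factors and -2.19 over the 6320 genes fitted when libraries were scaled on the 23 T cell identity genes. It was -0.29 with TMM, -0.15 with median-ratio factors and -0.76 with table totals. Relative to that median, Bcl2 stood at 2.72 with the authors' factors and 3.01 with the T cell scaling, Bax at 1.49 and 1.55, Bcl2l11 at 1.84 and 2.05, Bak1 at 0.995 and 1.06, Bbc3 at 1.34 and 1.38, and Trp53 at -0.20 and -0.18. A change of scaling moves all genes by about the same amount, so the likeness of these values follows from how they are computed. The T cell scaling rests on genes that had themselves passed the authors' threshold as higher, while 12 of the 35 listed genes, Cd3e and Cd8a among them, are outside the table.

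On TPM, which allows levels of different genes to be set side by side, the order of the 6 genes differed between groups. In treated libraries Bax was highest at 195 ± 10.2 TPM, followed by Trp53 at 151 ± 22.4 and Bak1 at 147 ± 3.7, which overlapped, then Bcl2 at 84.8 ± 11.9, Bcl2l11 at 63.3 ± 8.0 and Bbc3 at 14.1 ± 1.5 (SD, n = 3). In PBS libraries Trp53 was highest at 316 ± 54.9 TPM, followed by Bak1 at 136 ± 7.0 and Bax at 128 ± 10.6, which overlapped, then Bcl2l11 at 33.3 ± 11.7 and Bcl2 at 27.0 ± 13.0, which also overlapped, and Bbc3 at 10.3 ± 1.3 (SD, n = 3). Bcl2 and Bcl2l11 thus changed places, as did Bax and Trp53. Mean TPM, treated over PBS, gave 3.14 for Bcl2, 1.90 for Bcl2l11, 1.52 for Bax and 1.37 for Bbc3. It gave 1.08 for Bak1 and 0.48 for Trp53, and all 6 values were lower than those from scaled reads.

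Ratios inside a library do not depend on scaling between libraries, so Bcl2 was set against the death genes in this way. They can still depend on the mix of cells in a library, and that part was not tested. The TPM ratio of Bcl2 to Bcl2l11, a survival protein and its BH3-only antagonist, was 1.32, 1.28 and 1.42 in treated libraries, against 0.70, 0.94 and 0.73 in PBS libraries. On TPM it was above 1 in each treated and below 1 in each PBS library, and the mean log2 ratio was higher by 0.78 (SE 0.14, n = 3 each). In deposited reads, not corrected for length, Bcl2 exceeded Bcl2l11 in PBS library 2 (2414 against 1977), though not in PBS libraries 1 and 3. The crossing of 1 thus holds for TPM only, and the log2 difference from reads was 0.94. Bcl2 relative to Bax was 0.39, 0.45 and 0.47 in treated libraries, against 0.11, 0.29 and 0.23 in PBS libraries, a mean log2 difference of 1.16 (SE 0.42, n = 3 each). Without PBS library 1, the lowest, that difference was 0.75. PBS libraries 1 to 3 had the same order in the geometric mean TPM of 23 T cell identity genes, at 37.4, 111 and 69.3.

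Ratios with Bak1 and Bbc3 were added after the data were seen. Set against Bak1, Bcl2 stood at 0.50, 0.60 and 0.63 in treated libraries, against 0.11, 0.28 and 0.20 in PBS libraries. Against Bbc3 it stood at 5.72, 5.75 and 6.63 in treated libraries, against 1.45, 4.25 and 2.32 in PBS libraries. Taken over the sum of Bax, Bak1, Bcl2l11 and Bbc3, Bcl2 was 0.18, 0.21 and 0.22 in treated libraries, against 0.049, 0.12 and 0.090 in PBS libraries. Treated libraries were above PBS libraries in each of these ratios. TPM of Bcl2 alone already separated the groups, so the ratios share that separation and are not independent of each other. Bcl2 is also the only survival gene in them. The other survival genes present, Bcl2l2 and Bcl2a1a, had log2 changes of -0.70 and -2.14 with the authors' size factors. The exact permutation test of 3 against 3 libraries gave two-sided p = 0.10, the smallest it allows, for Bcl2 over Bax, over Bcl2l11 and over the sum of both (0.12 after Benjamini-Hochberg adjustment over 7 ratios), so it cannot pass 0.05. All 6 genes had been selected by the authors' q-value on the same contrast.

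**Figure D3:**
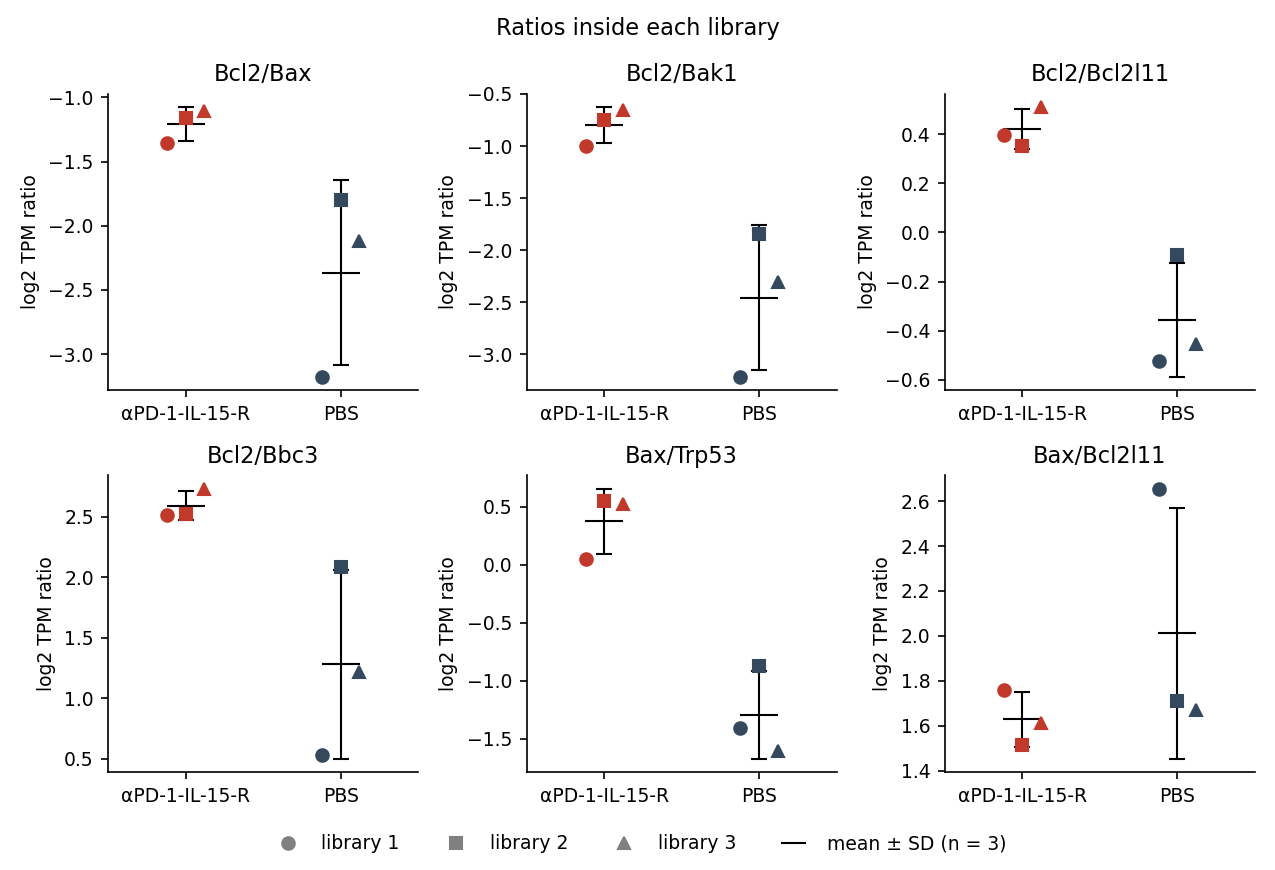
log2 of the TPM ratio (y axis, not starting at 0) of each pair of genes inside each library of the αPD-1-IL-15-R and PBS groups, with the mean ± SD (n = 3). The 4 ratios with Bcl2 on top and Bax/Trp53 are higher in all treated libraries, while Bax/Bcl2l11 overlaps, as treated library 1 exceeds PBS libraries 2 and 3.

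The ratio between the death genes Bax and Bcl2l11 showed no such separation. Bax over Bcl2l11 was 3.38, 2.86 and 3.06 in treated libraries, against 6.30, 3.27 and 3.18 in PBS libraries. PBS library 1 alone stood apart, and the mean log2 difference of -0.38 (SE 0.33, n = 3 each, exact permutation p = 0.30) was -0.06 without it. Bax over Trp53 was 1.04, 1.46 and 1.44 in treated libraries, against 0.38, 0.55 and 0.33 in PBS libraries, a log2 difference of 1.67 (SE 0.27, n = 3 each). Bcl2 over Trp53 differed by 2.83 on the log2 scale (SE 0.60) and Bcl2l11 over Trp53 by 2.05 (SE 0.48), both higher in treated libraries (n = 3 each). For the 3 ratios over Trp53, full separation was given by TPM values that already did not overlap in opposite directions, so they are descriptions.

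Because T cell genes themselves were higher in the treated libraries, each gene was also divided, inside a library, by the geometric mean TPM of the 23 T cell identity genes, a comparison chosen with the data in view. Bcl2 was 0.56, 0.58 and 0.63 of that mean in treated libraries, against 0.37, 0.36 and 0.39 in PBS libraries. The PBS libraries lay close together on this scale, unlike their TPM, and the groups stayed apart by 0.65 in log2 (SD 0.08 in treated and 0.06 in PBS libraries, n = 3 each, exact permutation p = 0.10). All 23 genes had passed the authors' threshold as higher on the same contrast, so dividing by them lowers the difference of every other gene. Bcl2 had passed that threshold too, so its separation here is a description. Divided by Cd8b1 alone, Bcl2 was 0.087, 0.087 and 0.11 in treated libraries, against 0.044, 0.045 and 0.052 in PBS libraries, a mean log2 difference of 0.99. With Cd8b1 as divisor, the difference of Bcl2l11 was 0.22, where the 23 genes gave -0.125. It was -0.17 for Bax, -0.32 for Bbc3, -0.665 for Bak1 and -1.84 for Trp53. Over the mean of the 23 genes, Cd8b1 itself differed by -0.34 and Cd3d by -0.325.

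**Figure D4:**
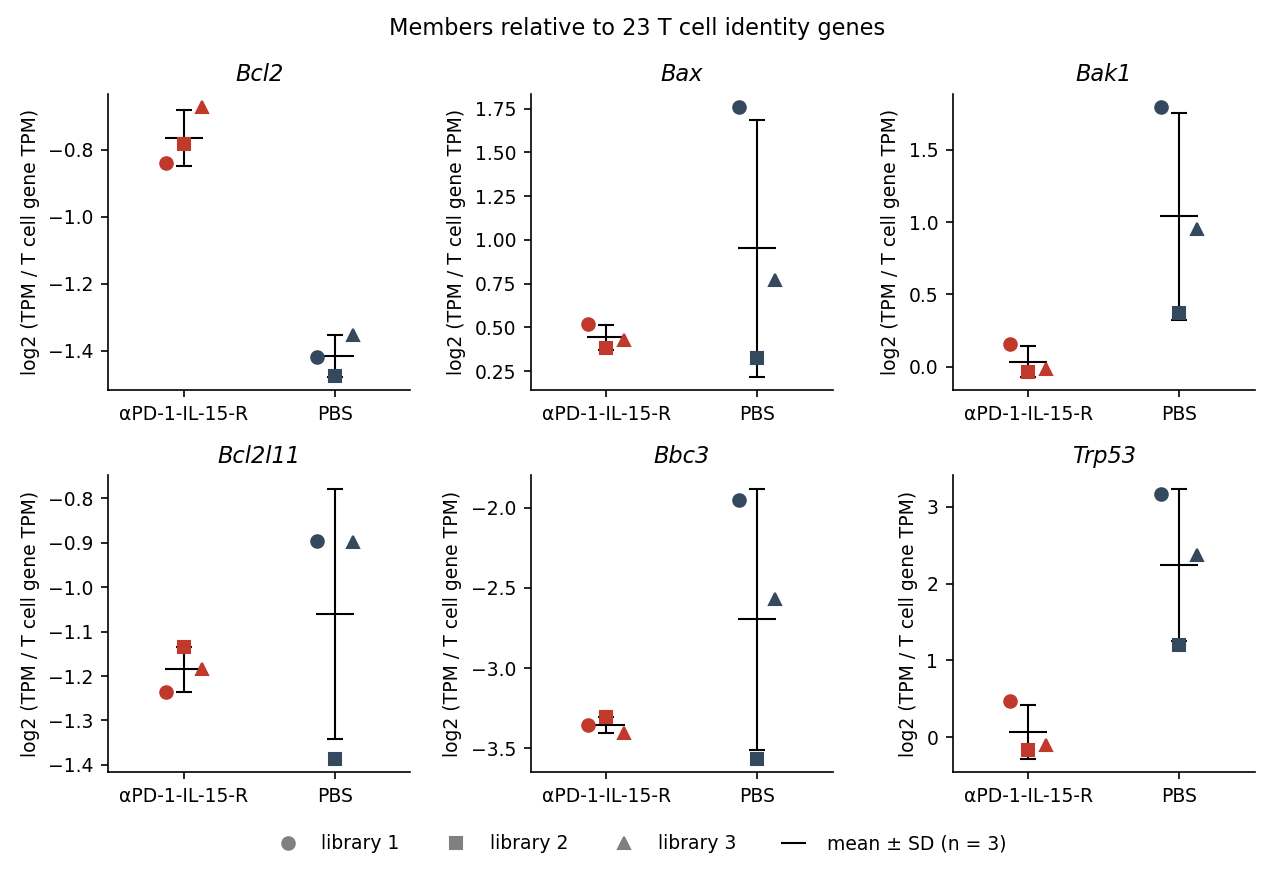
log2 of each gene's TPM over the geometric mean TPM of 23 T cell identity genes (y axis, not starting at 0) in each library of the αPD-1-IL-15-R and PBS groups, with the mean ± SD (n = 3). Bcl2 is higher and Trp53 and Bak1 are lower in all treated libraries, while Bax, Bcl2l11 and Bbc3 overlap. The 23 genes had all passed the authors' threshold as higher, which lowers the treated values of other genes on this scale.

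Relative to the 23 T cell identity genes, none of the death genes was higher in all treated libraries. Bcl2l11 was 0.42, 0.46 and 0.44 of the T cell mean in treated libraries, against 0.54, 0.38 and 0.54 in PBS libraries, and the groups overlapped (log2 difference -0.13, n = 3 each, exact permutation p = 0.40). Bax was 1.43, 1.30 and 1.35 in treated libraries, against 3.38, 1.25 and 1.70 in PBS libraries, and Bbc3 was 0.098, 0.10 and 0.095 in treated libraries, against 0.26, 0.085 and 0.17 in PBS libraries. For both, PBS library 2 lay below every treated library and the other two PBS libraries above. Trp53 was 1.38, 0.89 and 0.93 in treated libraries, against 8.97, 2.29 and 5.18 in PBS libraries. Its groups stayed apart, by -2.18 in log2 (n = 3 each, exact permutation p = 0.10).

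No survival gene in the table other than Bcl2 was called higher. Of 8 listed survival genes, 3 are in the table, and the fit called Bcl2 higher and Bcl2a1a lower, beside 16.5% and 20.7% of all fitted genes. Bcl2a1a, a gene of the A1 protein found in activated lymphocytes and myeloid cells, fell to 22.7 ± 11.4 scaled reads in treated libraries, against 101 ± 15.1 in PBS libraries (SD, n = 3 each, log2 change -2.14, SE 0.41, edgeR adjusted p = 0.042). It has near-identical copies among which reads may have been split, so its own value is uncertain. Bcl2l2, the gene of BCL-W, averaged 254 ± 30.1 in treated and 412 ± 57.3 in PBS libraries (SD, n = 3 each) and stood just outside the threshold at a log2 change of -0.70 (edgeR adjusted p = 0.052).

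Of the remaining effector and BH3-only genes listed, Bok and Bik are in the table. Bok, another pore-forming relative, averaged 88.1 ± 117 scaled reads in treated and 597 ± 303 in PBS libraries (SD, n = 3 each). At a log2 change of -2.75 (SE 1.10) it missed the threshold (edgeR adjusted p = 0.14), but leaving out treated library 1 gave -4.85, which passed (edgeR adjusted p = 0.0019). Bik, a BH3-only gene, averaged 37.3 ± 6.1 in treated and 12.5 ± 6.1 in PBS libraries (SD, n = 3 each), or 1.57 higher in log2 (SE 0.41, edgeR adjusted p = 0.055).

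Among p53 target genes in the table, more were called higher than lower. Of 40 listed targets 26 are in the table, and the fit called 12 higher and 3 lower, against 16.5% of fitted genes called higher and 20.7% called lower. Their median log2 change was 0.67, against -0.57 for all fitted genes, and -0.86 with the T cell scaling, where 3 of the 26 were higher and the median over the genes fitted both ways was -2.16. Besides Bax and Bbc3, the genes called higher were Ccng1, Trp53inp1, Aen, Pidd1, Ei24, Gtse1, Psrc1, Tap1, Def6 and Ppm1d. Trp53inp1, which encodes a nuclear cofactor of p53, rose to 1097 ± 138 scaled reads in treated libraries, against 320 ± 139 in PBS libraries (SD, n = 3 each, log2 change 1.78, SE 0.37), and kept its direction under the T cell scaling at 0.43. Ccng1, the gene of cyclin G1, rose to 3710 ± 221 in treated libraries, against 1451 ± 381 in PBS libraries (SD, n = 3 each, log2 change 1.36, SE 0.21), and stood at -0.07 with the T cell scaling. Psrc1, a microtubule-binding gene of dividing cells, rose by 1.66 (SE 0.22) on the log2 scale and stood at 0.07 with that scaling.

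**Figure D5:**
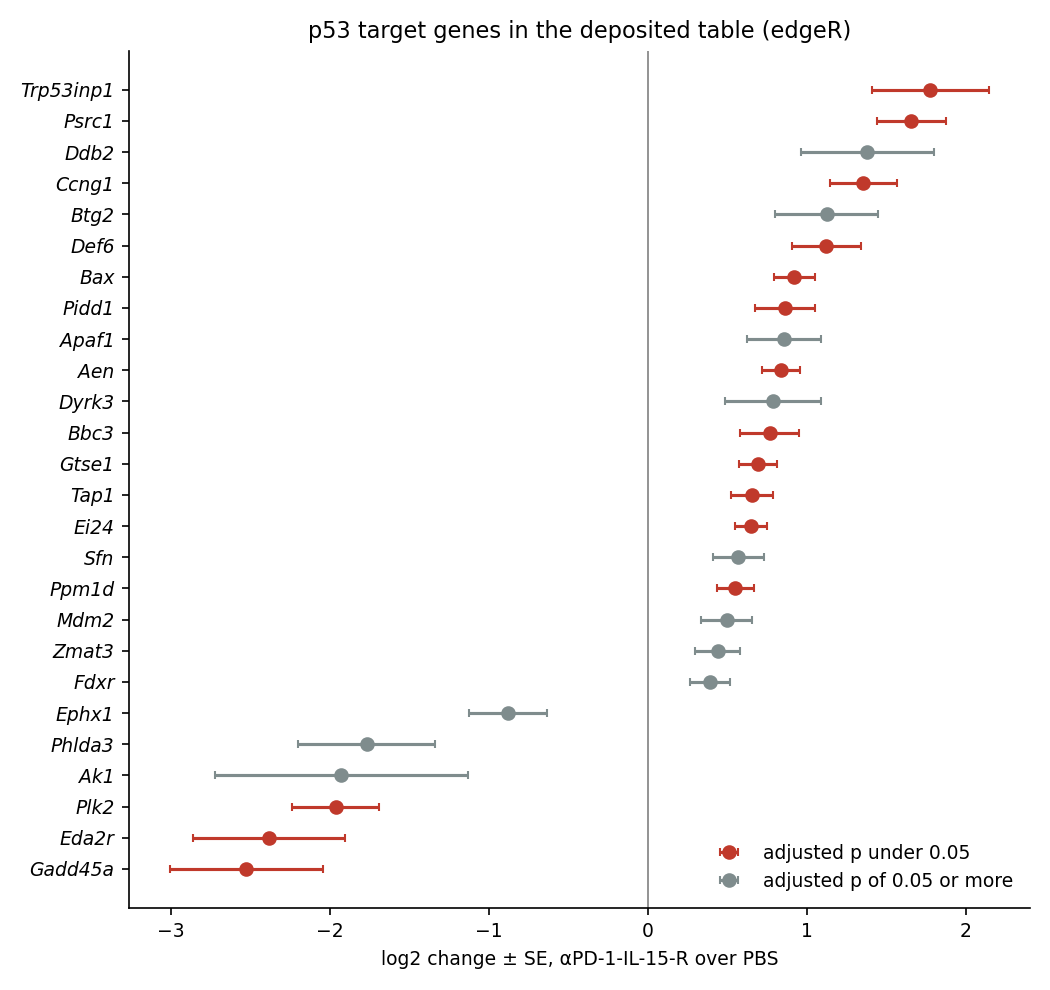
edgeR log2 change (x axis, ± SE) of αPD-1-IL-15-R over PBS for the 26 listed p53 target genes in the deposited table, in red where the adjusted p was under 0.05. Of these, 20 lie above 0 and 6 below, with 12 and 3 called, and with the T cell scaling 3 of the 26 were higher.

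The 3 targets called lower were Gadd45a, Plk2 and Eda2r. With the T cell scaling their log2 changes were negative, as for most genes fitted both ways, 5806 against 431 positive. Phlda3, Ak1 and Ephx1 also had negative log2 changes, of -1.77, -1.93 and -0.88, that missed the threshold. Gadd45a, a growth arrest and DNA damage gene, fell to 84.2 ± 49.7 scaled reads in treated libraries, against 486 ± 130 in PBS libraries (SD, n = 3 each, log2 change -2.53, SE 0.48). Plk2, the gene of a stress-induced kinase, fell to 555 ± 179 in treated libraries, against 2167 ± 391 in PBS libraries (SD, n = 3 each, log2 change -1.96, SE 0.28). Eda2r, a receptor of the TNF receptor family, fell by 2.38 on the log2 scale from few reads, 3.4 ± 1.4 in treated and 18.6 ± 6.6 in PBS libraries (SD, n = 3 each). Cdkn1a, Sesn1, Sesn2, Fas and Perp are outside the table.

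Among the genes that control p53, 6 of 18 are in the table, with 2 called higher and 1, Trp53 itself, lower, beside 16.5% and 20.7% of all fitted genes. Cdkn2a, which encodes the p53-stabilising ARF and the cell cycle inhibitor p16, rose to 120 ± 12.6 scaled reads in treated libraries, against 18.9 ± 10.8 in PBS libraries (SD, n = 3 each, log2 change 2.66, SE 0.46, edgeR adjusted p = 0.040), and stood at 1.36 with the T cell scaling. Ppm1d, the gene of a phosphatase that switches p53 off again, rose by 0.55 (SE 0.12) on the authors' scale, and -0.97 was its value with the T cell scaling. Mdm2, the gene of the ligase that degrades p53 and itself a p53 target, averaged 2105 ± 240 in treated and 1493 ± 243 in PBS libraries (SD, n = 3 each), a log2 change of 0.50 (SE 0.16) that missed the threshold (edgeR adjusted p = 0.081) and stood at -0.99 with the T cell scaling.

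Downstream of the mitochondrion, 6 of 14 apoptosome and caspase genes are in the table, and the fit called 3, all higher, beside 16.5% of all fitted genes called higher. All of the 6 but Endog were below 0 with the T cell scaling. Casp2, the gene of an initiator caspase, rose to 756 ± 12.3 scaled reads in treated libraries, against 497 ± 30.5 in PBS libraries (SD, n = 3 each, log2 change 0.61, SE 0.10). Dffa, the gene of the inhibitor of the apoptotic nuclease, rose by 0.84 (SE 0.19) and Endog, a mitochondrial nuclease gene, by 1.51 (SE 0.31) on the log2 scale. Apaf1, the scaffold that cytochrome c switches on, stood at 0.86 (SE 0.23, edgeR adjusted p = 0.059) and at -0.56 with the T cell scaling. Of 9 inhibitor of apoptosis genes 2 are present and none was called by edgeR, where 37.2% of all fitted genes were called. Both had an unadjusted p under 0.05, as had 6127 of the 6251 fitted genes. Birc5, the gene of survivin, stood at 0.49, or -1.13 with the T cell scaling, and Naip6, one of a family of near-identical copies, at -1.09.

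In the death receptor branch, 4 of 13 genes are in the table and 1 was called, where 37.2% of all fitted genes were called. Ripk3, the kinase of necroptosis, rose to 1020 ± 69.9 scaled reads in treated libraries, against 352 ± 121 in PBS libraries (SD, n = 3 each, log2 change 1.53, SE 0.27, edgeR adjusted p = 0.040), and stood at 0.14 with the T cell scaling. Fasl, the ligand that killer T cells use, averaged 1960 ± 366 in treated and 863 ± 477 in PBS libraries (SD, n = 3 each), with a log2 change of 1.18 that missed the threshold (edgeR adjusted p = 0.10) and stood at -0.12 with the T cell scaling. Tnfrsf1a, a TNF receptor gene, stood at -0.68 (edgeR adjusted p = 0.050, not below the threshold), and Ripk1, the kinase gene that links TNF receptors to survival and death, at 0.39 (edgeR adjusted p = 0.057) and at -1.12 with the T cell scaling.

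Of 25 other genes whose products bind BCL2 proteins, carry BCL2 in their name or act beside them, 10 are in the table, 3 called higher and 2 lower, beside 16.5% and 20.7% of all fitted genes. Bag1, a co-chaperone that binds BCL2, rose by 0.72 (SE 0.11), Fkbp8, which anchors BCL2 at mitochondria, by 0.73 (SE 0.12) and Bcl2l13 by 0.36 (SE 0.09) on the log2 scale, and all 3 were below 0 with the T cell scaling. Bag3, a stress-induced co-chaperone, fell by 1.45 (SE 0.26) and Tmbim1, of the BAX inhibitor motif family, fell by 1.66 (SE 0.34).

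Of 24 genes listed as upstream of Bcl2 and Bcl2l11, 13 are in the table, with 3 called higher and none lower by edgeR, beside 16.5% and 20.7% of all fitted genes. Myb, a transcription factor gene, rose to 673 ± 154 scaled reads in treated libraries, against 186 ± 83.9 in PBS libraries (SD, n = 3 each, log2 change 1.85, SE 0.38), and stood at 0.51 with the T cell scaling. Jak1, the kinase at the IL-2 and IL-15 receptor, rose by 0.80 (SE 0.19) and Akt2 by 0.60 (SE 0.14), both below 0 with that scaling. The forkhead genes that drive Bcl2l11 had log2 changes of opposite sign with the authors' factors and did not pass the threshold, Foxo1 at 0.67 (SE 0.18, edgeR adjusted p = 0.059; -0.78 with the T cell scaling) and Foxo3 at -0.61 (SE 0.21, edgeR adjusted p = 0.087). Over all 65 pathway genes in the table other than the 6, 21 were called higher and 6 lower, beside 16.5% called higher and 20.7% called lower of all fitted genes.

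Profiles over the 6 libraries, centred on each gene's own mean, were compared by their root mean square difference in log2 among 4934 genes with at least 100 scaled reads on average. Bcl2 lay closest to Dkkl1 (0.06), Itgb3 (0.07) and Trp53i11 (0.09). Bcl2l11 lay closest to Tecpr1, Ngly1 and Cd200r4, within 0.07, and Bax to Gm44504, Phf7 and Rpl36al, within 0.06. Trp53 lay closest to Ubqln2, Hmgcs1 and Bend3, within 0.04, Bak1 to Cwc15, Dcaf17 and Ano10, within 0.03, and Bbc3 to Rpl38, Rps29 and Fzd5, within 0.08. Among the 6 genes themselves, Bax and Bbc3 had the most similar profiles, differing by 0.19, and Bcl2 and Trp53 the least similar, differing by 1.63. Bcl2 was closer to its antagonist Bcl2l11, at 0.50, than to Bax, at 0.79. These profiles span both groups, so such distances largely restate the log2 changes between them.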

How the data were processed

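RNA-seq of 3 αPD-1-IL-15-R and 3 PBS libraries was read from 1 table deposited by the authors. It gives estimated counts for each gene, deposited unscaled, with table totals of 8484736 to 9403710 reads, which limits precision to counting error of those reads plus spread between libraries. TPM and FPKM values, and log10 values, labelled log10(TPM+1), are also the authors', as deposited. Their log2 change, p-value and q-value were deposited beside these. HISAT2 and RSEM are named in the submitters' processing notes. The genome build and the authors' test are not given in the sources used here.

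The authors' q-values are the Benjamini-Hochberg adjustment of their p-values over 17077 genes (100.0% recovered within 1e-06), so the table is the selection below 0.05. Their size factors were recovered from the deposited log2 changes of 3105 genes with over 200 reads in each library (0.91 to 1.08). Rounded counts were fitted for the whole table with edgeR 4.0.16 in R 4.3.3 (low counts removed by filterByExpr, robust dispersion, quasi-likelihood F test, group as the only term) using those factors, and p-values were adjusted over 17077 genes and called below 0.05. The fit was tested on simulated counts. SEs are the log2 change divided by the square root of F. Ratios were tested by exact permutation of libraries. Alternatives were other scalings, DESeq2 1.42.0, limma 3.58.1 on counts and on log2(TPM + 1) or log2(TPM + 0.1), no filter, adjustment over the table alone, each library left out, and the replicate number as a block.

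The members and gene lists were chosen with earlier results of these data known. Named genes are the members, list genes called by the fit, genes of lists with 5 or fewer members present, and the 3 closest profiles per member. Mdm2, Apaf1, Foxo1, Foxo3, Phlda3, Ak1, Ephx1 and the genes outside the table were added for their role after their values were seen.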

Additional observations from a re-analysis of the deposited data

How the results depend on the processing

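Bcl2 stayed higher and Trp53 lower in direction under every alternative run, and so did the sign of all 7 ratios. Scaling on T cell identity genes turned Bax to -0.64, Bcl2l11 to -0.14, Bak1 to -1.13 and Bbc3 to -0.81 in log2 and left Bcl2 at 0.82, past no threshold. Calls were lost for Bcl2l11 with table totals (1.07) and limma on log2(TPM + 1) or log2(TPM + 0.1) (0.97 and 0.99), for Bbc3 with the same 3 (0.57, 0.42 and 0.45), and for Trp53 with TMM (-0.49) and median-ratio factors (-0.35). Bak1 passed with TMM (0.69), median-ratio factors (0.85), and DESeq2, limma-voom or adjustment over table genes alone (each 0.42). With table totals its log2 change was only 0.235, and with limma on TPM 0.11 for either pseudocount, past no threshold. The cause was not tested.

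Of 65 other pathway genes, 21 were called higher and 6 lower in the edgeR fit reported. The counts higher and lower under TMM were 37 and 7, and under median-ratio factors 39 and 7. They were 13 and 16 with table totals and 0 and 15 with T cell scaling (30 had an unadjusted p under 0.05, as had 4504 of 6320 table genes). DESeq2 gave 45 and 20, limma-voom 35 and 11, and no filter 22 and 9. Adjustment over table genes gave 44 and 19, and limma on TPM 10 and 17 for either pseudocount. Over all table genes fitted, edgeR called 1031 higher and 1296 lower, 1995 and 1182 with TMM, and 2258 and 1686 with median-ratio factors. It called 411 and 2027 with table totals, 28 and 2582 with T cell scaling, and 1202 and 1641 without the filter. Adjusted over table genes it called 2655 and 3459. DESeq2 called 2643 and 3479 and limma-voom 1889 and 2848. Limma called 535 and 3415 on log2(TPM + 1) and 478 and 3345 on log2(TPM + 0.1).

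Leaving out 1 library at a time gave log2 changes of 1.85 to 2.59 for Bcl2, 0.83 to 0.99 for Bax, 1.03 to 1.51 for Bcl2l11, -0.90 to -0.68 for Trp53, 0.37 to 0.48 for Bak1 and 0.68 to 0.88 for Bbc3. It gave 0 to 31 pathway genes called higher and 0 to 11 lower, with 0 of either without treated library 2 or 3 or PBS library 1 or 3, 29 and 11 without treated library 1, and 31 and 9 without PBS library 2. Ratio differences ranged from 0.75 to 1.44 for Bcl2/Bax, 0.69 to 0.91 for Bcl2/Bcl2l11, 2.37 to 3.32 for Bcl2/Trp53 and -0.56 to -0.06 for Bax/Bcl2l11. Over all table genes, edgeR called 1509 higher and 3040 lower without treated library 1, and 1649 and 1369 without PBS library 2. It called 0 without treated library 2 or 3 or PBS library 1 or 3.

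Deviations of same-numbered libraries correlated at 0.60, 0.60 and -0.24, and treated library 3 correlated best with PBS library 2 (0.56), so the numbers were not taken to pair samples. With the replicate number as a block, edgeR called 34 pathway genes higher and 13 lower, and Bbc3, at 0.76, missed the threshold (adjusted p = 0.052). Over all table genes, 1743 were then called higher and 2594 lower. With 3 libraries a group and a table selected on its own test, genes without a difference cannot be described.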
